A study of Mus musculus with 6 samples.

Results

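Cluster 2 is the group of cells richest in Il9 in the authors' own clustering of T helper 9 (Th9) cultures from Cblb-/- mice (KO) and wild-type mice (WT). Its members are the 2716 cells that the deposited table numbers 2, of 27258 cells in all, and they were taken as given. KO libraries D, E and F held 615, 570 and 870 of them (2055 together), and WT libraries A, B and C held 229, 166 and 266 (661 together). Both groups were naive CD4+ T cells from mouse spleen, kept for 48 h with 3 ng/ml human TGF-beta, 20 ng/ml IL-4 and 20 µg/ml of an antibody against interferon-gamma, then enriched on CD4 beads and sequenced one cell at a time with 10x Genomics 3' v3 chemistry. The groups differ in genotype, and every library received the same cytokines and antibody. The labels do not say how the Cblb allele was made, give no age or strain background, and leave unstated whether each library had its own mouse, so that p-values cover library-to-library spread alone, which may be technical. The library letters stand for sequencing indices. The cells were clustered on genes that include Il9, so the number of cells per cluster was not compared between genotypes, and differences between cluster 2 and the other clusters are given without a test.

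Th9 cells are CD4 T helper cells that secrete the cytokine IL-9 when IL-4, acting through the transcription factor STAT6, and TGF-beta are present together. IRF4, BATF, NF-kB factors and STAT5 downstream of IL-2 are known to act at the Il9 gene, and IL-9 acts on mast cells and on epithelium in allergic inflammation. Cblb encodes CBL-B, a ubiquitin ligase that restrains signals from the T cell receptor and CD28.

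The markers given for the cluster were Il9, Batf3, Lta, Atf3, Il24 and Il4. Il9 (ENSMUSG00000021538) lies on chromosome 13, 56479277 to 56482246, minus strand, and Batf3 on chromosome 1, 191097847 to 191108945, plus strand (GENCODE M21, mm10). RefSeq promoter windows (GRCm38.p6, 250 bases before to 50 bases after a start) were held for 5 of the 6 markers, all but Il24. Those of Il9, Batf3 and Lta are shown because Batf3 and Lta had the highest correlations with Il9 among the cells of the cluster. Capitals mark TGANTCA, the sequence that AP-1 and BATF dimers bind, searched on both strands.
Il9 promoter, chr13:56482208-56482507, minus strand: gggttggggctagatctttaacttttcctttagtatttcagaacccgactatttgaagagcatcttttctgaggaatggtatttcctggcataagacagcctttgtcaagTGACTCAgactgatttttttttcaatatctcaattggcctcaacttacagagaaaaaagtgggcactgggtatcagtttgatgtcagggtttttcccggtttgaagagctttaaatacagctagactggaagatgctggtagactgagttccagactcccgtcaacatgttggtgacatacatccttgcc
Batf3 promoter, chr1:191098164-191098463, plus strand: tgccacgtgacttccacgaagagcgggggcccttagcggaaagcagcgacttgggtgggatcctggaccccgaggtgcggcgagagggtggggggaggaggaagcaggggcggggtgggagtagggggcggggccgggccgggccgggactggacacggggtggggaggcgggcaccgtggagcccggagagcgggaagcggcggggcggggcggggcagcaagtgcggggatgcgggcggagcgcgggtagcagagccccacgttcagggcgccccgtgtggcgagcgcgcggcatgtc
Lta promoter, chr17:35205302-35205601, minus strand: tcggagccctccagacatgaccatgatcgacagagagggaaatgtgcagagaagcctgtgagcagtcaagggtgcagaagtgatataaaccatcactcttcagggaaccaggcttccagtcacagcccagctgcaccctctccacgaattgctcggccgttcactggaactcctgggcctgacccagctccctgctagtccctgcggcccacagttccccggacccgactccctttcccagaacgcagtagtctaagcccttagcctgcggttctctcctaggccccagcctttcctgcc
The Il9 window held 1 match to TGANTCA, with its first base at -140 from the start, and 1 match to TTC and GAA with 4 bases between them, the spacing that STAT6 prefers. The Batf3 window held no TGANTCA and 1 TTCNNNGAA, the general STAT sequence. The Lta window held 2 matches to TTCNNNGAA and 1 with the 4-base spacing. Among 32851 promoter windows of this length, 7.81% held TGANTCA, 8.30% TTCNNNGAA and 6.95% the 4-base spacing. These matches describe letters in a window and are not evidence of binding.

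The cells of cluster 2 carried T cell genes and hardly any marker of another lineage. All 8 CD4 T cell markers were present, summing to 1749 to 2144 ppm (counts per 1000000 corrected counts) per library, against 2271 to 2440 ppm in the cells of clusters 0, 1, 3, 4 and 5, from here on the other cells. A ppm value is the share of a gene in all sctransform-corrected counts summed over the cells of a library. Mast cell or basophil markers, a lineage that can itself make IL-9 and IL-13, summed to 0.138 to 0.976 ppm over 8 measured genes, with 2 of them at 0 in every library. Markers of myeloid cells summed to at most 0.360 ppm, of natural killer or innate lymphoid cells to at most 2.25 ppm, and of gamma delta T cells to at most 12.6 ppm. In the other cells the mast cell list summed to 0.567 to 1.01 ppm and the myeloid list to at most 0.330 ppm. The natural killer list reached 1.12 ppm there and the gamma delta list 2.59 ppm. These last 2 lists were low but higher in the cluster in every library, as in WT library C (12.6 against 2.59 ppm for gamma delta). The B cell list summed to 19.1 to 36.1 ppm, nearly all of it Ighm and Cd79b, and stood at 27.2 to 34.97 ppm in the other cells. Cd8b1 made up most of the CD8 list, which reached 12.1 ppm.

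Depth was somewhat lower in the cluster's KO cells. The median raw UMI total per cell of cluster 2 was 40920, 37669 and 40764.5 in KO libraries and 42596, 43894.5 and 43755 in WT libraries, where the other cells had 35337.5 to 39436 and 37148.5 to 38462. Cells with more than 2 times the median UMI total of their library made up 5.63% to 8.29% of the cluster in KO and 6.99% to 12.4% in WT libraries, against 2.63% to 4.36% of the other cells. No doublet caller was run, and the part of doublets in the results was not tested. Of the cluster's cells 15 shared a barcode with a cell of another library, as did 152 of all cells.

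Il9 was the gene that set the cluster apart most. It stood at 4389, 3537 and 4090 ppm in the cluster 2 cells of KO libraries and at 3129, 2706 and 2877 ppm in those of WT libraries. In the other cells it was 153, 115 and 154 ppm in KO and 90.4, 63.0 and 79.7 ppm in WT libraries, a median 32.3-fold distance between cluster and other cells. Cluster 5 came second, with 1734, 1160 and 1517 ppm in KO libraries and 364, 208 and 224 ppm in WT libraries. Cluster 1 followed with 223 ± 44.2 ppm in KO and 101 ± 16.6 ppm in WT libraries (SD, n = 3 each), and cluster 4 was lowest with 41.7 ± 17.6 and 15.2 ± 5.60 ppm. In every one of these clusters the 3 KO values averaged more than the 3 WT values, and in clusters 0, 1, 2, 4 and 5 the groups did not overlap. In total the cluster held 82.5% ± 4.51 of all Il9 counts of a KO library and 67.2% ± 3.18 of those of a WT library. The two-sided exact permutation p was 0.1, below which 3 against 3 libraries cannot go. This share also depends on how many cells each library had in the cluster, so no conclusion is drawn from it.

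**Figure D1:**
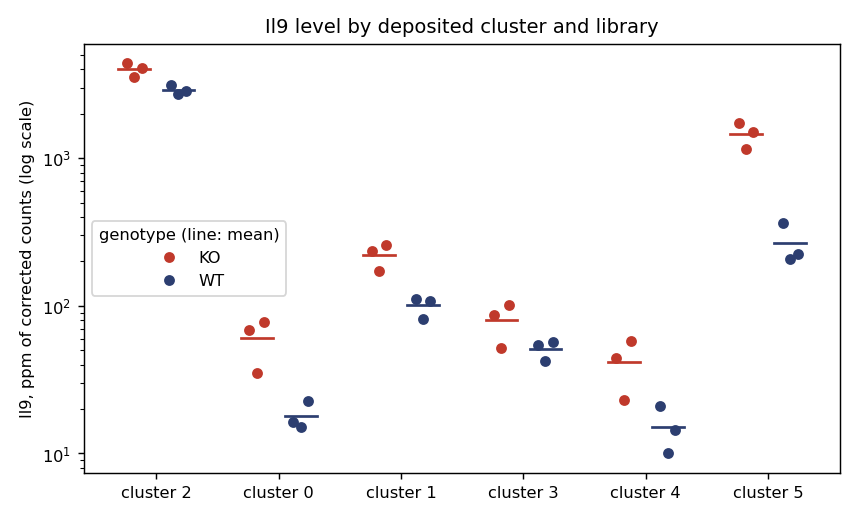
Il9 level (ppm of corrected counts, log axis) in 6 deposited clusters, with 1 point per library and a line at the mean of 3 libraries. Cluster 2 lies between 2706 and 4389 ppm, and cluster 5 of the KO libraries, at 1160 to 1734 ppm, is the nearest group.

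Every cell of the cluster had Il9. The lowest value per cell was 20, 11 and 18 corrected counts in KO libraries and 29, 26 and 24 in WT libraries, so all cells held at least 10. The median was 113, 96 and 102.5 in KO cells and 88, 78.5 and 82.5 in WT cells. The lower quartiles hardly separated the libraries (59, 59 and 62 in KO, 58, 55 and 58 in WT). Clustering on genes that include Il9 limits how low Il9 can be in these cells, and its part in these values was not tested. In the upper tails 11.7% ± 2.83 of KO cells and 5.04% ± 1.75 of WT cells reached 300 (SD, n = 3 each, two-sided exact permutation p = 0.1, below which 3 against 3 libraries cannot go). At a value of 100 the shares were 51.6% ± 3.11 and 39.2% ± 4.66 (exact permutation test, p = 0.1). The lowest KO library, E, had 48.4% (95% exact binomial interval 44.2% to 52.6%) and the highest WT library, A, 44.5% (38.0% to 51.2%), and these intervals, which cover counting error only, overlap widely.

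The tenth of the cells richest in Il9 held 32.2% ± 1.14 of the cluster's Il9 in KO libraries and 28.3% ± 1.82 in WT libraries. High Il9 was nearly confined to the cluster: 336, 276 and 450 KO cells of the cluster reached 100, and 17, 16 and 20 KO cells outside it did. In WT libraries 102, 60 and 98 cells inside and 9, 7 and 7 outside reached it. Single cells outside ran as high as 1458 (F) and 389 (A). Within the cluster a cell's Il9 value had a Spearman correlation of -0.037 to 0.096 with its raw UMI total and of -0.10 to 0.02 with its mitochondrial share, given as a description over cells of 1 library each.

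**Figure D2:**
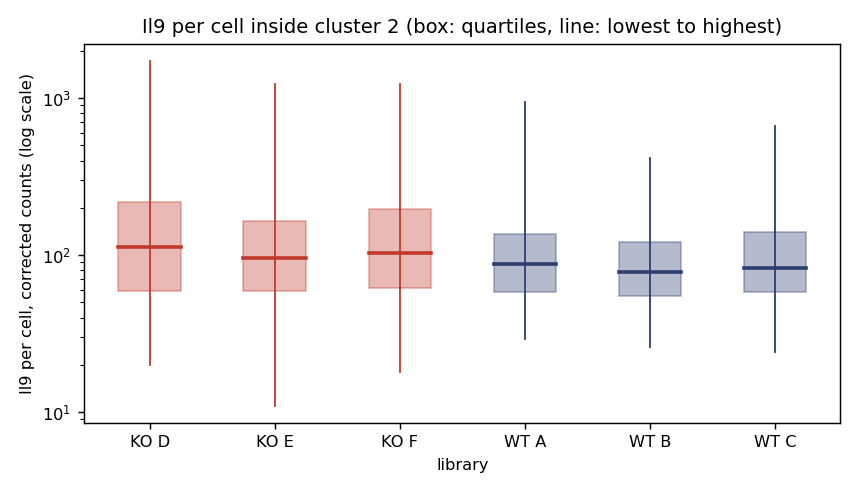
Il9 per cell inside cluster 2 (corrected counts, log axis) by library, with boxes from the lower to the upper quartile, a thick line at the median and a thin line over the whole range. The boxes start at 55 to 62 in all 6 libraries, and the medians of KO libraries (96 to 113) lie above those of WT libraries (78.5 to 88).

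Beyond Il9, Batf3, Nppc and Lta stood furthest above the other cells in all libraries among genes averaging at least 20 ppm. Batf3, a BATF family partner of JUN, had a median distance of 2.10 on the log2(ppm + 1) scale to the other cells of the same library, at 224, 255 and 275 ppm in KO and 240, 183 and 197 ppm in WT cells of the cluster. Lta, the cytokine lymphotoxin-alpha, had a distance of 1.78 and stood at 571, 530 and 477 ppm in KO and 711, 444 and 533 ppm in WT cells. Both were above the other cells in 6 of 6 libraries.
Nppc, the precursor of C-type natriuretic peptide, was 1.86 higher, the serum and glucocorticoid kinase gene Sgk1 1.72, the cytokine gene Il1a 1.48 and the stress factor Atf3 1.47. Serpina3g, a protease inhibitor gene of T cells, was 1.42 higher, Fam46a 1.25, Ctla2a 1.21, the nuclear lamin gene Lmna 1.14 and the STAT5 target Socs2 1.08. The list went on with Stra6 (0.999), Rragd (0.99), Il12a (0.99), the glucocorticoid-induced Tsc22d3 (0.98), Dennd5a (0.97), Nupr1 (0.94) and the intermediate filament gene Vim (0.89). Of the 20 named genes 19 had their highest mean level in cluster 2 among 6 clusters. The lead over the next cluster varied (means over the 6 libraries). Nppc stood at 29.1 against 10.6 ppm in cluster 1, and Batf3 at 229 against 107 ppm in cluster 5. Il1a stood at 23.96 against 22.73 ppm in cluster 3, and Socs2 at 206 against 172 ppm in cluster 1. Ctla2a stood at 126 against 98.1 ppm in cluster 5. The distances above are to the pooled other cells and not to the next cluster. Across all 8465 genes described, 21.2% were above the other cells in 6 of 6 libraries and 22.3% below, but only 21 (0.248%) were above by a median of at least 2-fold and 29 (0.343%) below.

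Il13, the type 2 cytokine, was the exception among the 20. Its median distance was 1.77, but by library it ran from less than 0.01 (D) to 2.21 (E) in KO and from 1.34 (C) to 3.46 (B) in WT libraries. Cluster 3 had the highest mean over the 6 libraries, 229 ppm against 52.5 ppm in cluster 2, and owed it to KO libraries D and F (642 and 685 ppm). In KO library E (52.9 against 39.1 ppm) and in all 3 WT libraries (12.9, 21.6 and 3.90 against 4.53, 2.60 and 1.40 ppm) cluster 2 was above cluster 3. The remaining label markers were scarce: Il4 stood at 19.9, 5.95 and 5.41 ppm in KO and 10.2, 3.44 and 7.42 ppm in WT cells of the cluster, and at 0.36 to 2.33 ppm in the other cells. At least 1 count of Il4 was found in 6.44% to 15.4% of the cluster's cells and in 0.824% to 3.89% of the other cells. All 6 markers were above the other cells in 6 of 6 libraries, as a list picked for this cluster would be, and Il4 and Il24 were found in a minority of its cells.

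Genes low in the cluster were mostly genes of clusters 3, 4 and 5. Ccl20, a chemokine gene, stood 2.23 below the other cells and had its highest level in cluster 4 (767 ppm), and Akr1c18, a steroid-metabolising enzyme gene, stood 2.14 below and was highest in cluster 5 (624 ppm). Il2 was 175 ppm in cluster 2 and 1268 ppm in cluster 3, a distance of 1.40 below the other cells. Igfbp7, Ramp1, Bdh2, Myh10, Jaml, Chst2, Ms4a6b, the SLAM family receptor gene Slamf6 and the T cell receptor adaptor gene Trat1 were lowest in cluster 2 of all 6 clusters, 9 of the 12 named genes.

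**Figure D3:**
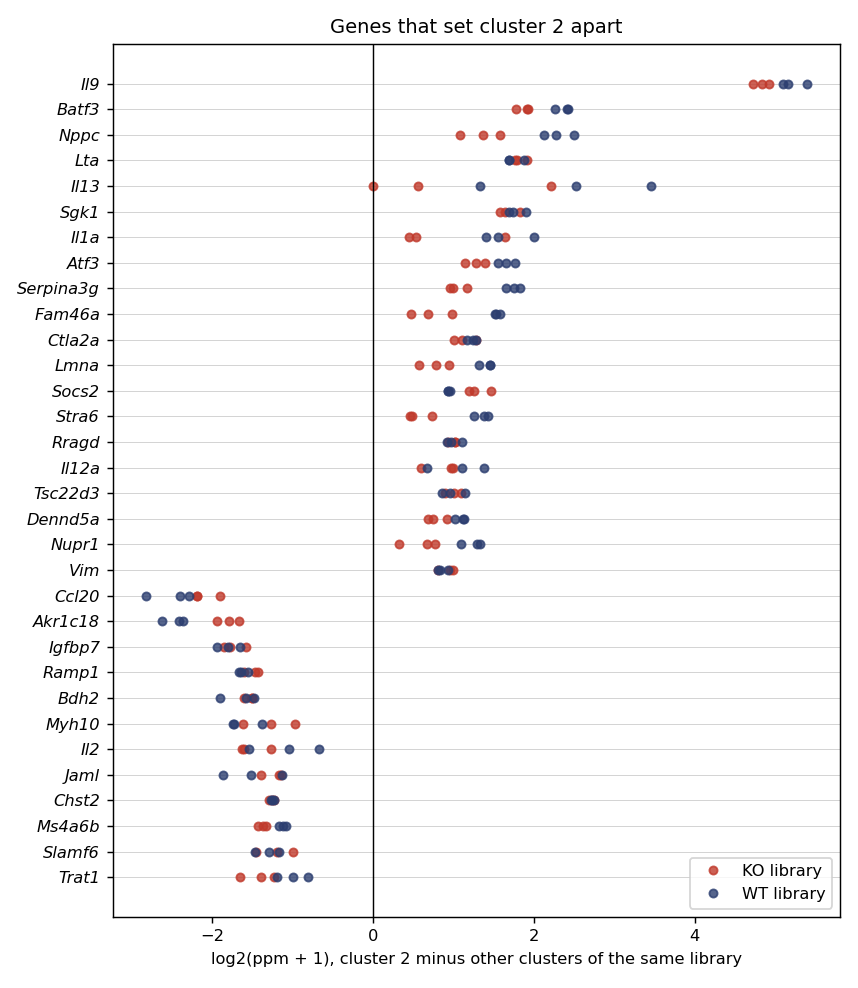
Distance between cluster 2 and the other cells of the same library, as a difference of log2(ppm + 1), with 1 point per library for the 20 highest and 12 lowest genes among those averaging at least 20 ppm in the cluster (highest) or in the other cells (lowest). Il9 lies near 5 in all libraries, and the points of Il13 spread from about 0 to above 3.

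The gene lists are given beside the 21.2% of all genes above and 22.3% below the other cells in 6 of 6 libraries. Of 31 genes of the ATF4 response and amino acid supply 29 were higher in the cluster in 6 of 6 libraries and 0 lower, with a list median of 0.30, against -0.01 over all genes. Among them were Cth (0.80), which makes cysteine, the pseudokinase gene Trib3 (0.78) and Asns (0.61), which makes asparagine. Of 35 MYC target and ribosome biogenesis genes 29 were higher and 0 lower (median 0.16), including the spermidine synthase gene Srm (0.37), although Myc itself stood at -0.01. Of 19 genes of the IL-2 and STAT5 response 15 were higher and 0 lower, including Il2ra (0.70), a subunit of the IL-2 receptor, and Socs3 (0.61). The label markers Il9 and Lta, high by the choice of the cluster, are among these 15. Of 32 hypoxia and glycolysis genes 17 were higher and 0 lower, and of 23 endoplasmic reticulum chaperone genes 13 and 0.
Against the 22.3% of all genes below, 21 of 36 genes of proximal T cell receptor signalling were lower and 4 higher, the lower ones including Ptpn22 (-0.66), a phosphatase that dampens receptor signals, Prkcq (-0.56) and Cd3e (-0.55). All 8 CD4 T cell markers were lower in 6 of 6 libraries, with a median of -0.36. Of 12 inhibitory receptor genes 10 were lower and 1, Lair1 (0.58), higher, including Tox (-0.98), Lag3 (-0.84) and Nt5e (-0.84). Naive and quiescence genes were lower for 12 of 18 and higher for 3, and genes of G2 and mitosis for 22 of 38 and 1, by small amounts (median -0.10). The other cells differed in makeup, with cluster 0 making up 51.9% to 65.9% of the other cells in KO and 32.9% to 34.0% in WT libraries, and the part of this in the distances was not tested.

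Among the cells of the cluster, correlations of other genes with Il9 were small. Over 8830 genes found in at least 10% of the cells of every library, 90% had a median Spearman correlation with Il9 between -0.05 and 0.06 over the 6 libraries, and no p is given because the cells of a library are not replicates. In 6 of 6 libraries 490 genes were positive and 355 negative. Batf3 had the highest (0.21, 0.13 to 0.24 by library) and Lta the next (0.18, 0.10 to 0.22). Cells in the top quartile of Il9 averaged 11.0 ± 1.87 corrected counts of Batf3 and those in the bottom quartile 7.52 ± 1.40 (SD over 6 libraries), and for Lta 26.7 ± 6.04 and 16.4 ± 2.12. Both were higher in the top quartile in 6 of 6 libraries.
Translation factor genes Eif6 (0.15) and Eif5a (0.14), Dennd5a (0.14), Lmna (0.14), the NF-kB subunit gene Nfkb2 (0.13), the chaperone genes Hspd1 (0.13) and Hsp90aa1 (0.13), Rnf19b (0.13), Cox5a (0.13) and the TNF receptor family gene Cd40 (0.13) came next. Slamf6 was at the other end (-0.13), with 0.514 ± 0.121 counts in the top quartile and 1.002 ± 0.318 in the bottom quartile. Pabpc1, Pou2f2, Tbc1d4, Lrmp and Rgs10 had medians from -0.13 to -0.12. The sign did not hold in every library for Nfkb2 (-0.02 in WT library B) or Pabpc1 (0.01 in KO library E). Correlations of this size in sparse counts are weak.

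The next comparison asked how KO and WT cells differed inside the cluster. The targeted gene comes first: Cblb (chromosome 16, 52031225 to 52208048, plus strand) stood at 13.6, 9.59 and 12.9 ppm in KO and 22.2, 20.6 and 20.1 ppm in WT cells of the cluster, and the groups did not overlap. It fell by 0.77 on the log2(ppm + 1) scale (SE 0.12, limma, Benjamini-Hochberg adjusted p = 0.00211). Reads from 3' ends outside a deleted part would still be counted, and the labels do not give that part. Il9 itself was 1.38-fold higher in KO cells (0.46 on the log2 scale, limma, SE 0.08, adjusted p = 0.00266), at 4006 ± 432 ppm in KO and 2904 ± 212 ppm in WT cells. Restricted to cells with an Il9 value of 40 to 150, a range chosen after the data were seen, its difference was 0.08 (limma, adjusted p = 0.229), as that choice forces. The cluster itself was formed on genes that include Il9, and the part of that in the difference of 0.46 was not tested.

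Across the 8435 genes averaging 5 ppm or more, 708 rose (8.39%) and 984 fell (11.7%) in KO cells at a limma adjusted p below 0.05, 20.1% in all. The groups did not overlap for 37.7% of genes. Most changes were small: 67 of the rises and 17 of the falls reached 2-fold, and the median over all genes was -0.03. With median-of-ratios scaling the split was 861 higher and 667 lower, and with upper-quartile scaling 817 and 764, so it is not firm which direction was more frequent. Of the called genes 1178 also passed with the same sign in the other cells of the same libraries. Without WT library C, 398 rose and 437 fell, without A 537 fell and without B 620 fell. In the cells with Il9 of 40 to 150, 613 rose and 813 fell. Of the 24 largest named changes none that was tested there lost its call. Genes averaging under 5 ppm in those cells were not tested, and the Th9 cytokine and chemokine list had 7 tested genes there against 8.

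The largest rises on the log2(ppm + 1) scale were those of cytokine and chemokine genes. Their size and order depend on the pseudocount, because WT values were near 0: with 0.1 and 10 ppm in its place, Ccl22 was 5.05 and 1.16 higher, Ccl17 4.505 and 1.05, Csf2 3.62 and 1.60 and Il13 3.04 and 2.16, all still called. Ccl22, a chemokine that attracts CCR4-bearing cells, had 9.05, 29.5 and 6.82 ppm in KO and 0.340, 0 and 1.07 ppm in WT cells, which is 3.25 higher on the log2 scale (limma, SE 0.43, adjusted p = 0.000754). Ccl17, another CCR4 ligand, had 8.80, 29.8 and 6.34 ppm in KO and 0.340, 0 and 3.22 ppm in WT cells (log2 difference 2.87). KO library E was highest for both, with Ccl22 counts in 5.61% of its cluster cells. Both genes passed the 5 ppm average only through KO libraries. Without library E neither reached it, so neither was tested there. Csf2, which encodes GM-CSF, had 29.5, 43.7 and 16.1 ppm in KO and 1.59, 1.09 and 5.47 ppm in WT cells (log2 difference 3.13, SE 0.40, limma adjusted p = 0.000644). It was found in 19.8% ± 3.91 of KO and 2.66% ± 0.638 of WT cells of the cluster.
Il13 had 139, 52.9 and 85.0 ppm in KO and 12.9, 21.6 and 3.90 ppm in WT cells, which is 2.91 higher on the log2 scale (limma, SE 0.46, adjusted p = 0.0021). The lowest KO library, E, was still above the highest WT library, B. Il13 counts were found in 41.1%, 15.8% and 31.5% of KO and in 2.62%, 4.82% and 3.38% of WT cells of the cluster, against 32.7%, 7.54% and 27.6% of the other KO cells and 0.774% to 1.004% of the other WT cells. Il24, an IL-10 family cytokine and label marker, had 17.6, 5.95 and 13.2 ppm in KO and 1.13, 1.88 and 2.44 ppm in WT cells (2.15 on the log2 scale, limma, SE 0.31, adjusted p = 0.00117).

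The remaining large rises were of several kinds. Inhba, a subunit of activin, rose by 2.08 (23.2, 12.8 and 22.7 ppm in KO, 4.76, 3.60 and 2.93 ppm in WT), Ece1, an endothelin-converting protease, by 1.86, and Gatm, an enzyme of creatine synthesis, by 1.85. Gpr65, an acid-sensing receptor gene, rose by 1.84, the T cell receptor-induced nuclear receptor gene Nr4a2 by 1.82, the MHC class II gene H2-Ab1 by 1.80 and the actin-severing protein gene Gsn by 1.77. Nr4a2 stood at 26.9, 23.4 and 32.0 ppm in KO and 5.56, 8.44 and 7.32 ppm in WT cells, with no overlap. For H2-Ab1 the KO values were uneven, with 6.87 ppm in E against 24.6 in D and 24.4 in F. Adjusted p for these 7 genes lay between 1.9e-05 (Ece1) and 0.00879 (H2-Ab1) in limma. Like Ccl22 and Ccl17, the genes Csf2, Il24, Inhba, H2-Ab1 and Gsn averaged under 5 ppm in WT cells. They passed the filter only through KO libraries.

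Among the falls, Coro2a, a coronin of the actin skeleton, was nearly lost: 0.510, 0.645 and 1.35 ppm in KO and 17.5, 16.3 and 14.2 ppm in WT cells (-3.23 on the log2 scale, limma, SE 0.18, adjusted p = 6.11e-06). It was found in 3.02% ± 1.57 of KO and 40.2% ± 5.23 of WT cells of the cluster (SD, n = 3 each). Trmo, a tRNA methyltransferase gene that lies 147.5 kb from Coro2a on chromosome 4, had 1.83, 1.38 and 2.10 ppm in KO and 9.64, 9.85 and 8.79 ppm in WT cells (-1.92). The chemokine gene Ccl4 had 43.9, 62.4 and 34.3 ppm in KO and 161, 118 and 98.2 ppm in WT cells (-1.42). Nppc, one of the genes highest in the cluster, had 21.0, 14.1 and 17.8 ppm in KO and 34.3, 42.8 and 44.9 ppm in WT cells (-1.17).
The pseudokinase gene Trib2 fell by 1.36, Hspbap1 by 1.29, the histone genes Hist1h2bj by 1.26 and Hist1h1a by 1.13, and the Hippo pathway factor Tead1 by 1.15. Tox, a factor of exhausted T cells, fell by 1.12, Maged1 by 1.11 and Pdlim5 by 1.08. Histone genes are near-identical copies, so counts may be split between them. Adjusted p for the 12 falls lay between 6.11e-06 (Coro2a) and 0.00463 (Maged1) in limma. Among them Coro2a, Trmo, Trib2, Tox and Maged1 averaged under 5 ppm in KO cells and passed the filter only through WT libraries.

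**Figure D4:**
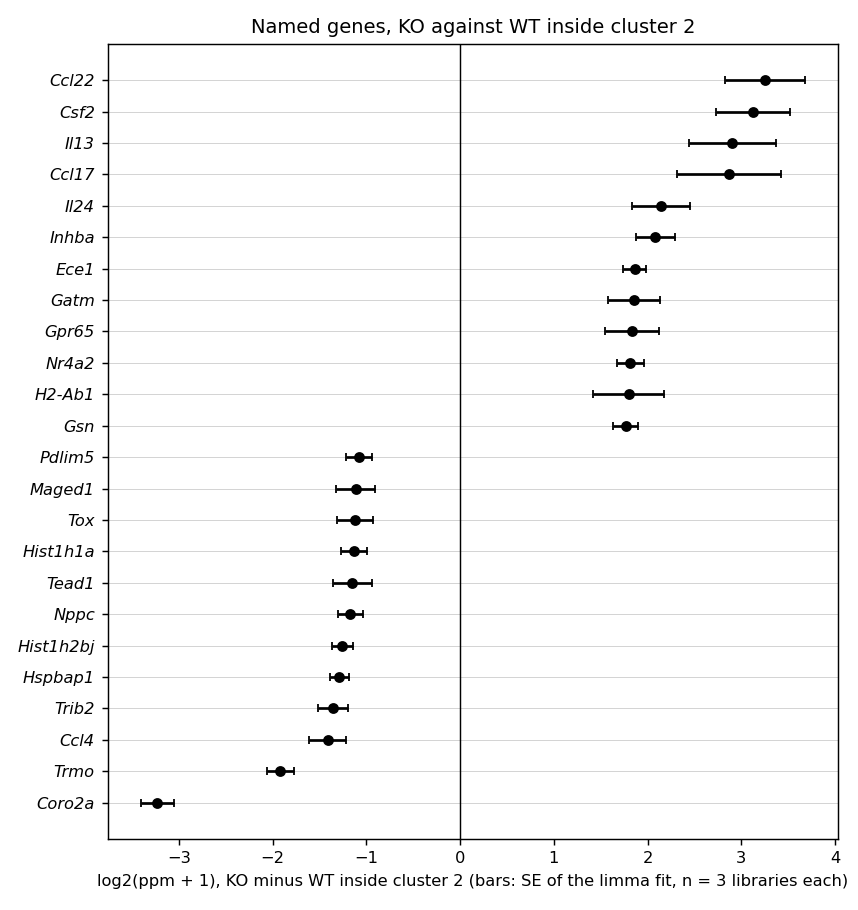
Difference between KO and WT cells inside cluster 2 for the 12 largest rises and 12 largest falls, on the log2(ppm + 1) scale with the SE of the limma fit (n = 3 libraries each). Ccl22, Csf2, Il13 and Ccl17 lie near 3, with wide errors, and Coro2a lies at -3.23 with a narrow one.

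Of the other label markers Atf3 was 62.7, 55.6 and 66.8 ppm in KO and 58.6, 43.6 and 38.2 ppm in WT cells, with the groups overlapping (log2 difference 0.41, limma, adjusted p = 0.0488). That call was lost without library B, C, D or F. Batf3 differed by 0.29 (adjusted p = 0.0628), Lta by -0.07 (0.741) and Il4 by 0.38 (0.563) in limma, none past the threshold, although Batf3 passed it with median-of-ratios scaling (0.32). Genes high in the cluster did not move together by genotype. Il12a (0.74), Il1a (1.30), Dennd5a (0.50) and Vim (0.29) rose in KO cells, and Stra6 (-0.58), Serpina3g (-0.57), Fam46a (-0.54) and Rragd (-0.34) fell along with Nppc. Sgk1, Ctla2a, Lmna, Socs2, Tsc22d3 and Nupr1 did not pass, with differences from -0.27 to 0.37.

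Read by gene lists, whose counts stand beside the 8.39% of all genes that rose, most cytokine genes tested were higher in KO cells. Of 11 Th9 cytokine and chemokine genes 8 were tested, of which 7 rose and 0 fell (median 1.52), Il4 being the one not called. Beside Il9 and the genes above, Il1rn, an antagonist of IL-1, rose by 1.12 and Ccl20 by 1.74. Il9 is among the genes the cells were clustered on. Ccl22, Ccl17, Il24 and Ccl20 averaged under 5 ppm in WT cells and were tested only through their KO values, so the filter favoured rises among scarce genes of this list. Of 30 secreted cytokine genes 17 were tested and 10 rose, including Tnf (0.37) and Penk (1.67), the precursor of enkephalins. Il9 is among these 10 too. So are Csf2, Il24 and Inhba, which averaged under 5 ppm in WT cells and were tested only through their KO values. The filter therefore favoured rises in this list as well. Of 25 Th9 transcription factor genes 11 rose and 3 fell (median 0.27): Atf5 (0.93), Hif1a (0.77), Batf (0.68) and Bhlhe40 (0.50) rose, and Irf8 (-0.88), Ahr (-0.78) and Tcf7 (-0.24) fell, and 7 rose without library C or F. Irf4, the factor required for Il9, differed by 0.13 without passing. In the type 2 list 3 of 6 rose, Il13, Gata3 (0.35) and the receptor gene Ccr4 (0.28), and only 1 of them without library B.

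Signalling lists varied. In the IL-4 and STAT6 response 8 of 10 genes rose, including the feedback inhibitor Socs1 (0.71) and Gfi1 (0.49), and 4 did without library D and 5 without B or C. Ccl22, Ccl17 and Il24, tested only through their KO values, were among the 8. In the IL-2 and STAT5 response 9 of 19 rose, with Socs3 (1.67) and the OX40 gene Tnfrsf4 (0.56) among them, and 5 did without library C. Il9, a gene the cells were clustered on, is among the 9. Of 24 NF-kB genes 10 rose and 0 fell, including Traf1 (0.76), Bcl3 (0.68) and Nfkb2 (0.60). Of 25 genes of the BATF and AP-1 family 8 rose and 1 fell, the rises including Fosl2 (1.19), Crem (0.99) and Fos (0.81). Of 36 proximal T cell receptor genes 5 rose (2 without library B, 3 without A or C) and 4 fell (1 without C, 2 without A), with a median of 0.02, shares near the 8.39% and 11.7% of all genes, the phosphatase gene Ubash3b (0.35) among the rises and Ubash3a (-0.32) and Cblb among the falls.
Inhibitory receptor genes went both ways: Ctla4 (1.04), Lag3 (0.999), Pdcd1lg2 (0.42) and Cd274 (0.36) rose, and Tox (-1.12), Nt5e (-1.02), Cd160 (-0.52), Pdcd1 (-0.34) and Btla (-0.25) fell. The 5 falls became 3 with median-of-ratios or upper-quartile scaling or without library C or F, 2 without D and 1 without A, and the 4 rises became 2 without B, C or D. Of 11 TNF receptor family genes 6 rose, including Cd27 (0.73) and Tnfrsf18 (0.65), the GITR gene, and 3 without library A or B. Of 15 regulatory T cell genes 7 rose (4 without library A or C) and 3 fell (1 without C, 5 without E), and among the falls was their defining factor gene Foxp3, with a difference of -0.70, at 7.99, 9.91 and 8.41 ppm in KO and 18.9, 10.8 and 15.9 ppm in WT cells. Of 18 MHC class I presentation genes 11 rose and 0 fell, including H2-Q6 (1.36) and H2-Q7 (1.29), near-identical paralogs whose counts cannot be fully told apart, and of 16 interferon response genes 10 rose, including Zbp1 (1.68), and 1, Ifi47 (-0.30), fell. The interferon rises became 5 without library A, D or F and 4 without C.

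Several growth and biosynthesis lists leaned the other way, but not all. Of 31 genes of the ATF4 response and amino acid supply 8 rose and 1 fell, with 2 rises and 0 falls without library C. Of 38 genes of G2 and mitosis 6 rose and 1 fell, with 2 rises without library B or C. Of 35 MYC target and ribosome biogenesis genes 0 rose and 20 fell (13 with median-of-ratios scaling, 11 without library C), by small amounts such as -0.71 for Nme2 and -0.48 for Srm, against 11.7% of all genes that fell. Of 23 chaperone genes of the endoplasmic reticulum 12 fell and 2 rose, including Sdf2l1 (-0.67) and Pdia3 (-0.58), and of 17 histone genes 12 fell and 0 rose (6 fell without library A). Of 62 nuclear respiratory chain genes 18 fell and 2 rose, but 9 fell with median-of-ratios scaling, 7 without library B and 5 without C. Of 28 genes of cholesterol and fatty acid synthesis 8 fell, Dhcr7 (-0.71) and Scd1 (-0.48) among them, 4 without library A and 3 without C. Hypoxia and glycolysis genes rose for 9 of 32, with Slc16a3 (1.27), a lactate exporter, and Bnip3 (1.13) among them, for 24 when library E was left out and for 5 without B.

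The last comparison asked for which genes the genotype difference in the cluster differed from that in the other cells of the same libraries. The distance of the cluster to the other cells was larger in KO for 223 of 8465 genes (2.63%) and smaller for 324 (3.83%), 6.46% in all (limma, adjusted p below 0.05). These counts are fragile: with a prior variance that does not depend on the level they were 4 and 8, and with 166 cells drawn per library 41 and 40. Leaving out D gave 113 and 136, F 134 and 121, C 106 and 138, and without B 206 were smaller. The makeup of the other cells by cluster differed between genotypes, and its part in these values was not tested.

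Il9 itself stood closer to the other cells in KO libraries. Its distance was 4.83, 4.93 and 4.73 in KO and 5.10, 5.40 and 5.16 in WT libraries, -0.39 apart (limma, SE 0.06, adjusted p = 0.000969), since Il9 was 0.46 higher inside the cluster and 0.85 higher outside it (limma, adjusted p = 0.0074). With each other cluster given equal weight the difference was -1.59, with cells of similar depth -0.16 (adjusted p = 0.345), and with equal cell numbers 0.10 (adjusted p = 0.849), so neither its size nor its call is firm. Batf3 (-0.50) and Atf3 (-0.38) had smaller distances in KO as well.

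Among the largest of these differences, Coro2a kept its call with the constant prior variance. In WT libraries it was enriched in the cluster, at 17.5, 16.3 and 14.2 ppm against 6.72, 5.17 and 5.30 ppm in the other cells, and in KO libraries it was near 0 in both (0.510, 0.645 and 1.35 ppm against 0.682, 0.503 and 1.48 ppm), a difference of -1.37 (limma, adjusted p = 4.56e-05). Ccl3, a chemokine gene, fell by 0.99 in the cluster, where it had 4.85, 10.8 and 9.07 ppm in KO and 24.2, 14.7 and 12.7 ppm in WT cells, and was 21.0 ± 5.12 and 15.6 ± 2.01 ppm in the other cells (difference -1.37). Nppc fell in the cluster and was 6.28 ± 1.13 and 7.42 ± 0.917 ppm elsewhere (-0.96), so the KO cluster stood out less by this gene.
Ly6a (-0.94), Gatm (-0.92) and Fam46a (-0.83) had smaller distances in KO too. In the other direction, Gadd45g, a stress and growth arrest gene, was 11.0, 7.56 and 20.7 ppm in KO and 6.13, 5.94 and 4.88 ppm in WT cells of the cluster, with 9.88 ± 4.12 and 10.2 ± 1.02 ppm in the other cells (difference 1.08). Nrgn (1.06), the transcription factor gene Maf (0.83), Akr1c18 (0.67, but -0.46 with the other clusters weighted equally), Dapl1 (0.58) and the antigen-loading gene H2-DMa (0.55) followed. For Nrgn, Akr1c18 and H2-DMa the larger part of the difference lay in the other cells. Their pooled level there was lower in KO than in WT libraries (12.6 ± 3.03 and 24.7 ± 3.07 ppm for Nrgn). Akr1c18 was highest in cluster 5, with means of 607 ppm in KO and 641 ppm in WT libraries. In cluster 0 it had 4.10 and 6.02 ppm. Cluster 5 made up 2.74% to 2.91% of the other cells in KO and 6.68% to 7.63% in WT libraries. The part of this makeup in the pooled fall of Akr1c18 was not tested.

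**Figure D5:**
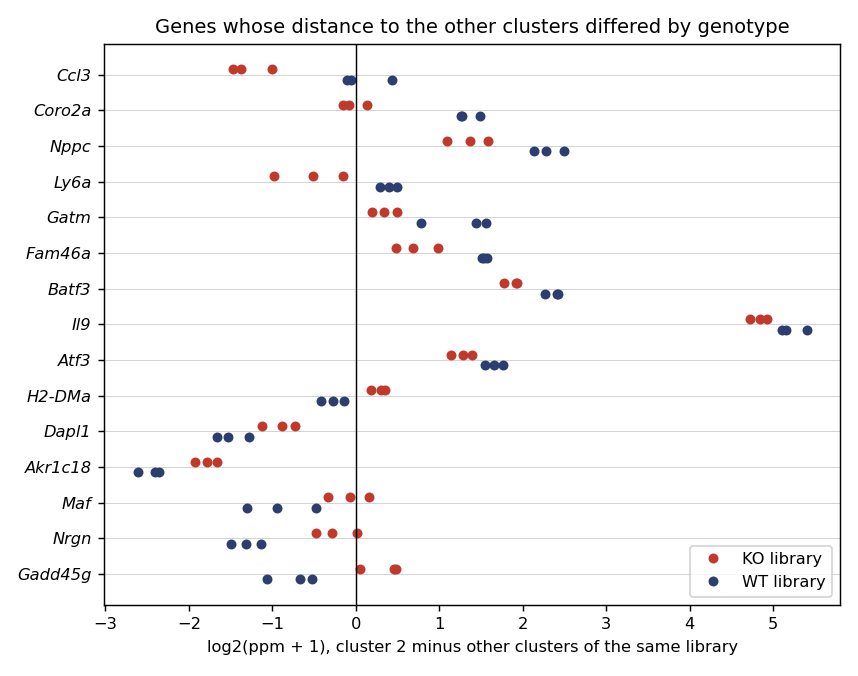
Distance between cluster 2 and the other cells (difference of log2(ppm + 1)) for 15 genes whose distance differed by genotype, with KO libraries above WT libraries for each gene. The groups do not overlap for any of the 15, which was a condition for choosing all but the label markers Il9, Batf3 and Atf3. Coro2a is near 0 in KO and above 1 in WT libraries.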

How the data were processed

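Cells of 3 Cblb-/- and 3 wild-type Th9 samples were sequenced. Per the submitters' processing notes, Cell Ranger 3.0.2, Seurat 3.0.0 and the mm10 build were used. The deposited values are whole-number sctransform-corrected counts, a score with depth already modelled by the authors, so no count model was fitted. Cluster numbers are the authors' own. The mitochondrial percent per cell is used as the authors deposited it. Over the cells of cluster 2, and over those of clusters 0, 1, 3, 4 and 5, values of 17369 genes were summed per library and scaled to ppm. Genes averaging at least 5 ppm were tested on log2(ppm + 1) with limma 3.58.1 in R 4.3.3 (trended prior variance, two-sided, Benjamini-Hochberg over all tested genes, threshold 0.05), and within-library differences likewise. Single values were compared by exact permutation (scipy 1.17.1). Named genes were the largest called changes without overlap (12 each way inside the cluster, 6 each way for distances), the 20 highest and 12 lowest against the other cells (averaging at least 20 ppm in the cluster or in the other cells), the 12 highest and 6 lowest correlations with Il9, and the label markers. Of each list 2 to 4 members were named. Receptor segments, sex-linked markers, mitochondrial, ribosomal protein and unnamed genes were left out of naming. In data simulated for the test inside the cluster (8435 genes), 90.9% of genes changed 1.5-fold were recovered and 6.52% of calls were false. The simulated noise was independent between genes, with no shift shared by a library, and few genes were changed. These figures therefore do not give the false-call rate in the real data. Alternatives were other pseudocounts, filters, scalings, depth bands, cell numbers and single libraries left out. Members and lists were chosen with earlier results of these data known.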

Additional observations from a re-analysis of the deposited data

Results flagged for a closer look

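For 15 genes the KO minus WT difference in the cluster differed from that in the other cells of the same libraries by a test of the difference itself (limma, adjusted p from 3.48e-05 for Ccl3 to 0.00666 for Maf, 3 libraries a group). The values are differences of differences on the log2(ppm + 1) scale. They were negative for Il9 (-0.39), Batf3 (-0.50), Atf3 (-0.38), Ccl3 (-1.37), Coro2a (-1.37), Nppc (-0.96), Ly6a (-0.94), Gatm (-0.92) and Fam46a (-0.83). They were positive for Gadd45g (1.08), Nrgn (1.06), Maf (0.83), Akr1c18 (0.67), Dapl1 (0.58) and H2-DMa (0.55). The 15 were named for the size of this difference or as label markers, and with a prior variance that does not depend on the level Coro2a alone among them kept its call.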

How the results depend on the processing

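Of 186 values of main comparisons under alternatives, 156 kept their direction and their side of any threshold. Among these, counts and untested values also kept about their size. The 186 include shares of cells with Il9 of at least 1 and 10, which were 100% in every library and could not change. They also include the shares at 100, which could not pass the threshold with so few libraries. Of 720 values of single genes 673 kept direction and side. A gene under the filter in a setting has no value there. Sizes moved with the pseudocount: at 0.1 and 10 ppm Coro2a was -4.20 and -1.26, Trmo -2.37 and -0.72, Gsn 2.08 and 0.75 and Ccl22 5.05 and 1.16, all called. Inside the cluster, leaving out 1 library gave 398 to 850 genes higher and 437 to 894 lower in KO, and an Il9 difference of 0.39 to 0.55. In cells with Il9 of 40 to 150 that difference was 0.078 (limma, adjusted p = 0.229), as the restriction itself forces. Il4 turned to -0.016 with equal cell numbers and -0.17 without D (-0.17 to 0.69 without 1 library), and Lta to 0.11 without A (-0.23 to 0.11), none of them called. Counts of distances that differed by genotype were 355 higher and 207 lower with median-of-ratios scaling, 604 lower with means of log values, 100 and 88 with cells of similar depth, 41 and 40 with 166 cells per library, 4 and 8 with a constant prior variance, and 106 to 215 and 121 to 307 without 1 library. For Il9 this difference was -0.16 at similar depth, 0.10 with equal cell numbers, -0.39 without a call under the constant prior variance (adjusted p = 0.098), and -0.45 to -0.30 without 1 library. For Lta it was -0.15 with means of log values, -0.013 with equal cell numbers and -0.26 with the other clusters weighted equally. It turned to 0.018 for Gatm with means of log values and to -0.46 for Akr1c18 with equal weights. The cause of these changes was not tested. The distance of the cluster to the other cells was 4.19 for Il9 and 1.53 for Lta with equal weights, 1.98 for Lta at similar depth, and 1.12, 0.44 and 0.67 for Atf3, Il24 and Il4 with a pseudocount of 10 ppm. Without 1 library it was 4.93 to 5.10 for Il9, 1.93 to 2.27 for Batf3, 1.77 to 1.79 for Lta, 1.39 to 1.55 for Atf3, 1.41 to 2.05 for Il24 and 2.01 to 2.35 for Il4, and the share of cells with Il9 of at least 100 differed by 10.9 to 15.1 percentage points. No paired analysis was possible because the library names in the table carry no replicate numbers. WT libraries held 166 to 266 cells of the cluster, which limits genes of few counts.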

Other observations

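Coro2a and Trmo, the 2 largest falls in KO cells of the cluster, lie close together on mouse chromosome 4 (mm10, GENCODE M21): Coro2a at 46536937 to 46602202 on the minus strand and Trmo at 46376505 to 46389437. The stretch was looked at after the values were seen. Within 1 Mb of Coro2a the table held 23 genes, of which 11 were tested. Coro2a (-3.23) and Trmo (-1.92) prompted the choice of the stretch. Of the other 9 tested genes 0 rose and 4 fell in KO cells, beside 8.39% and 11.7% of all genes tested in the cluster. The 4 falls were small: Tgfbr1 (-0.44), Ncbp1 (-0.27), Anp32b (-0.21) and Sec61b (-0.18), all log2 differences from limma. Tgfbr1 (-0.62), Ncbp1 (-0.19) and Sec61b (-0.21) also fell in the other cells at a limma adjusted p below 0.05, and Anp32b (-0.13) did not pass there. Cblb lies on chromosome 16. Whether the stretch differs in sequence between the KO and WT mice was not tested.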
